A study of Mus musculus with 6 samples.

Results

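Complement C1q is encoded by 3 neighbouring genes, C1qa, C1qb and C1qc, and all 3 were listed among the 8191 genes whose expression was deposited for splenic myeloid-derived suppressor cells (MDSCs) of aged mice. They were picked by symbol, with earlier results of these data known, and their levels in all 6 samples are described here. All 3 genes stood between 551 and 686 FPKM in the WT samples and between 23.6 and 43.9 FPKM in the samples of both knockouts. FPKM scales sequenced fragments to transcript length and library size, so levels of genes of different length can be compared on it.

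C1q is the recognition molecule of the classical complement pathway. Its A, B and C chains, each with a collagen-like stalk and a globular head, assemble into a bouquet that binds antibody in immune complexes, dying cells and other surfaces. With the proteases C1r and C1s it forms C1, which cleaves C4 and C2 and so starts the cascade. Unlike most complement proteins, which come largely from the liver, C1q is made mainly by macrophages and dendritic cells, and macrophages of the spleen are known for it. MDSCs are immature myeloid cells of granulocytic or monocytic kind that restrain T cells.

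The study asked how the TNF receptors act on MDSCs during ageing, and the genotypes compared were WT, Tnfr1-/- (lacking TNF receptor 1) and Tnfr2-/- (lacking TNF receptor 2), with 2 samples of each. The study describes old mice as 18 to 24 months old and, in a figure legend, pools of 5 mice for each of 2 independent experiments. All groups were aged, and the labels name no treatment and no culture. The deletions are carried by every cell of the mouse, so the MDSCs had also developed in hosts lacking the receptor. The table was restricted by the authors to genes with p under 0.05 in a one-way analysis of variance over the genotypes, so every gene here, C1q included, had already been selected for a difference. Listed values summed to 344714 and 346870 FPKM in WT and to between 133604 and 155248 FPKM in the 4 knockout samples, and WT values carried up to 10 digits against 6. This split follows genotype, so biology and data handling cannot be told apart in any comparison against WT. Tnfrsf1b, which encodes TNF receptor 2, was lowest in the Tnfr2-/- samples (11.3 and 14.3 FPKM, against 47.8 FPKM or more in the other 4). The gene of TNF receptor 1 was not analysed here, so the Tnfr1-/- label has no such check.

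The label MDSC was set against marker genes. The methods name an MDSC isolation kit with a flow cytometry check for CD45, Gr1 and CD11b, whereas the labels name cell sorting. Either is meant to leave out B cells, T cells and most macrophages and dendritic cells. Of the isolation markers, Itgam (CD11b), Ly6g and Ly6c2 were not analysed here, and Ptprc (CD45) was at 98.2 and 105 FPKM in WT and between 229 and 271 FPKM in the knockouts. Ly6c1, a Ly6C gene, was at 0.159 and 0.0638 FPKM in the WT samples but between 95.8 and 178 FPKM in the knockout samples. The 3 listed granulocyte markers of 16 summed to between 13.7 and 15.4 FPKM in WT, to between 2732 and 3070 FPKM in Tnfr1-/- and to between 1522 and 2450 FPKM in Tnfr2-/- samples. The samples labelled WT MDSCs were thus low in the listed granulocyte genes and in Ly6c1, and every result against WT below rests on these 2 samples.

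In GENCODE on the mm10 (GRCm38) assembly, the 3 genes lie in a row on the minus strand of chromosome 4 and span 18.7 kb. C1qa lies at chr4:136895917-136898803, C1qc at chr4:136889804-136893065 and C1qb at chr4:136880129-136886187. The main transcript of each has 3 exons. They measure 1040 (C1qa), 1203 (C1qc) and 1088 (C1qb) bases and encode 245, 246 and 253 residues. No other annotated gene overlapped them, and none of their 50-base windows, the length of the reads, occurred in a transcript of another gene. Reads of one chain could therefore not be shared with another by sequence identity.

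Sequence just upstream of the start is shown for the members whose promoter was in the RefSeq promoter table for GRCm38.p6, since the 3 genes moved together. C1qb (chr4:136886201-136886450) and C1qc (chr4:136893066-136893164) were present, both on the minus strand and read in the direction of transcription, and the C1qc stretch is limited to the bases ahead of its annotated first exon. Capitals mark the letters GAGGAA, a motif of the ETS factor encoded by Spi1, which macrophages need, searched on both strands.
C1qb: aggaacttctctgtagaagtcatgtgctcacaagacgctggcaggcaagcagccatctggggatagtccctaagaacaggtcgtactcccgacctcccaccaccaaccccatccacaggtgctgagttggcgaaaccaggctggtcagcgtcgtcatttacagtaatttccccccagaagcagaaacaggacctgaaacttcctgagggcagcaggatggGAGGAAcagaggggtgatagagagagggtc
C1qc: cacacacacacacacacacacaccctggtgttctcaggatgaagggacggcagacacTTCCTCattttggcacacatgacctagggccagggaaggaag
Counted from the GENCODE start of each gene, GAGGAA stood from -43 to -38 in C1qb and its reverse complement, TTCCTC, from -42 to -37 in C1qc. The printed stretch ends 14 bases ahead of that start in C1qb and 1 base ahead of it in C1qc. Such letters are common. GAGGAA or its reverse complement occurred in 28.3% of the 32851 promoter windows of the table, and a match is a description of the sequence only. An interferon-regulatory-factor motif held by 3.4% of the windows had no match in the full window of either gene.

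All 3 C1q genes were lower in both knockouts than in WT. C1qa, the A chain, was at 659 and 686 FPKM in WT, at 35.6 and 40.5 FPKM in Tnfr1-/- and at 36.2 and 29.5 FPKM in Tnfr2-/- samples. C1qb, the B chain, was at 610 and 654 FPKM in WT, at 31.6 and 36.1 FPKM in Tnfr1-/- and at 37.0 and 43.9 FPKM in Tnfr2-/- samples. C1qc, the C chain, was at 551 and 583 FPKM in WT, at 29.4 and 32.9 FPKM in Tnfr1-/- and at 29.2 and 23.6 FPKM in Tnfr2-/- samples. For each gene both WT samples lay far above all 4 knockout samples, with no overlap. For this and later statements on overlap, the share of all listed genes without overlap was not counted. The table holds only genes selected for a difference between genotypes, so lack of overlap does not set C1q apart. In bulk RNA, fewer cells of a type and less RNA per cell cannot be told apart.

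**Figure D1:**
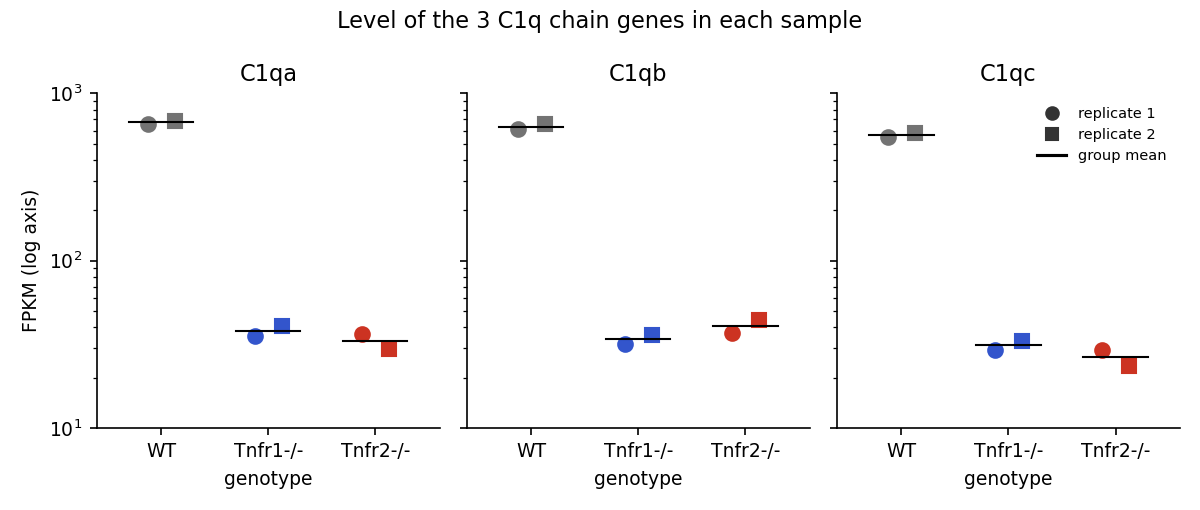
FPKM of C1qa, C1qb and C1qc (vertical log axis) in each genotype (horizontal axis). Points are the 2 samples of a genotype, circles for replicate 1 and squares for replicate 2, and lines are group means. WT samples lie between 551 and 686 FPKM and all knockout samples between 23.6 and 43.9 FPKM.

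The mean FPKM of C1qa (± SD, n = 2) was 673 ± 19.2 for WT, 38.0 ± 3.42 for Tnfr1-/- and 32.8 ± 4.75 for Tnfr2-/- samples. It was 632 ± 31.5, 33.8 ± 3.17 and 40.5 ± 4.89 for C1qb and 567 ± 22.6, 31.1 ± 2.53 and 26.4 ± 3.98 for C1qc. The WT mean of C1qa was thus 17.7-fold that of Tnfr1-/- and 20.5-fold that of Tnfr2-/- samples. For C1qb these ratios of means were 18.7 and 15.6, and for C1qc 18.2 and 21.5. The comparison was tested with limma on log2(FPKM + 1) over all 8191 genes, and a gene was called where the Benjamini-Hochberg adjusted p-value was under 0.05 and the fold change over 1.5. In Tnfr2-/- samples compared with WT, C1qa changed by -4.32 (standard error 0.13), C1qb by -3.94 (standard error 0.12) and C1qc by -4.38 (standard error 0.13) on the log2 scale, with limma adjusted p = 1.77e-05, 1.92e-05 and 1.76e-05. In Tnfr1-/- samples compared with WT, the changes were -4.11, -4.19 and -4.14, with limma adjusted p = 1.80e-05, 1.62e-05 and 1.76e-05. The 3 of 3 genes were called lower in both comparisons, which share the WT samples. Lower calls were frequent in this table, at 57.1% of all genes in Tnfr2-/- against WT (70.7% in either direction) and 60.7% in Tnfr1-/- against WT (74.8% in either direction).

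The size of the C1q change was therefore set against all listed genes. The median gene changed by -0.74 on the log2 scale in Tnfr2-/- and by -0.83 in Tnfr1-/- against WT. Counted from the most negative change of 8191 genes, C1qa held rank 85 in Tnfr2-/- and rank 125 in Tnfr1-/- against WT, and the other chains held ranks from 82 to 122. When the samples were scaled to a common median ratio, which brought the median change to -0.03 in both comparisons, the log2 change of C1qa, C1qb and C1qc was -3.34, -2.95 and -3.40 in Tnfr2-/- and -2.98, -3.05 and -3.01 in Tnfr1-/- against WT. All 3 genes remained called lower. An exact permutation test over the 15 ways to split 6 samples into 3 groups of 2 gave p = 0.0667 for C1qb and C1qc, the smallest p it can give, and p = 0.133 for C1qa. All listed genes had already passed an analysis of variance over these samples and genotypes. Neither these p-values nor those of limma are independent of that selection, so they add no separate support.

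The position of C1q among the genes of its own sample does not depend on scaling. C1qa, C1qb and C1qc stood between percentile 99.1 and 99.3 of listed FPKM in the WT samples. In the knockout samples C1qa stood at percentile 91.8 and 93.1 (Tnfr1-/-) and 91.0 and 87.8 (Tnfr2-/-). C1q transcripts in the knockouts were lower in rank but still stood above most listed genes. C1qa alone made up 0.191% and 0.198% of the listed FPKM in WT, 0.0265% and 0.0303% in Tnfr1-/- and 0.0243% and 0.019% in Tnfr2-/- samples.

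Between the knockouts no C1q gene was called, where 1.45% of all genes were (0.842% higher and 0.61% lower in Tnfr2-/-). The log2 change in Tnfr2-/- against Tnfr1-/- was -0.21 for C1qa (95% interval -0.54 to 0.12, limma adjusted p = 0.381), 0.25 for C1qb (-0.06 to 0.56, adjusted p = 0.290) and -0.24 for C1qc (-0.57 to 0.09, adjusted p = 0.334). These intervals lay within a 1.5-fold change (0.58 on the log2 scale) in either direction, but they reached further under other models and scalings. In limma on only the 2 groups they ran from -0.63 to 0.21 (C1qa), from -0.14 to 0.64 (C1qb) and from -0.66 to 0.19 (C1qc). For C1qb the interval with the replicate number as a block ran from 0.01 to 0.49 (limma adjusted p = 0.222). With median-ratio scaling the interval ran from -0.80 to 0.09 for C1qa and from -0.83 to 0.07 for C1qc, and with quantile normalization from -0.78 to -0.02 and from -0.79 to -0.06, so a difference of 1.5-fold was within reach. The samples of the knockouts overlapped for C1qa. They did not overlap for C1qb, which was higher in both Tnfr2-/- samples, nor for C1qc, which was lower in both, although 29.4 and 29.2 FPKM lie next to each other. Thus WT was the highest for each chain, and the order of the knockouts differed between chains and was not resolved by the test.

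The balance of the chains was then compared within each sample, where a factor common to all genes of the sample drops out. Quantile normalization is not such a factor. C1qa and C1qc kept nearly the same ratio in all samples, at 1.20 and 1.18 in WT, 1.21 and 1.23 in Tnfr1-/- and 1.24 and 1.25 in Tnfr2-/- samples, a coefficient of variation of 2.26% over the 6 samples. The ratio of C1qb to C1qc was 1.11 and 1.12 in WT, 1.08 and 1.10 in Tnfr1-/- and 1.27 and 1.86 in Tnfr2-/- samples, with a coefficient of variation of 24.4%. Tnfr2-/- replicate 2, which had the lowest C1qa and C1qc and the highest C1qb of the knockout samples, stood apart from the other 5. No model was fitted to these ratios, so the shift of C1qb in Tnfr2-/- samples is a description.

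**Figure D2:**
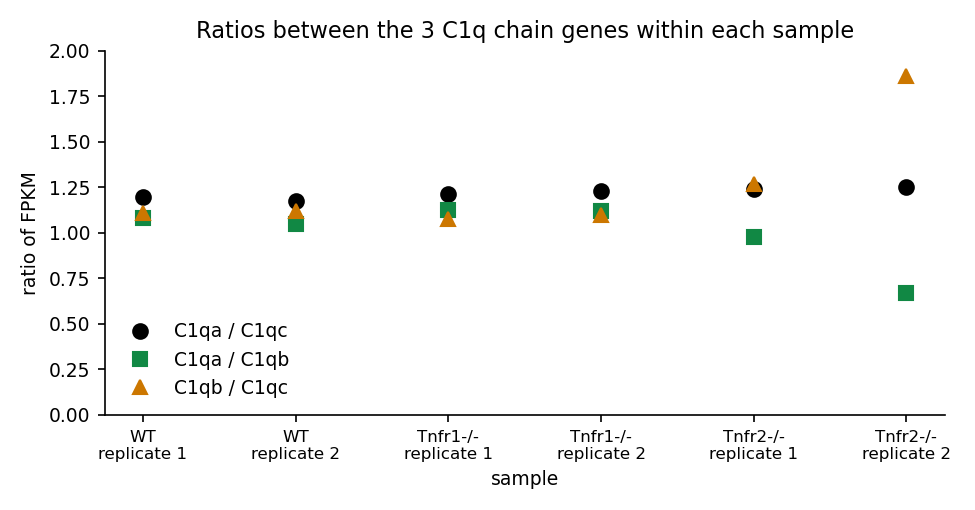
Ratios of FPKM between the 3 chain genes (vertical axis) in each of the 6 samples (horizontal axis). C1qa over C1qc (circles) stays between 1.18 and 1.25, whereas C1qb over C1qc (triangles) reaches 1.86 and C1qa over C1qb (squares) falls to 0.671 in Tnfr2-/- replicate 2.

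The other complement genes were taken from lists by role, of which 26 of 50 genes were listed in the table. In Tnfr2-/- against WT 15 were called lower and 6 higher, with a median log2 change of -0.87, and in Tnfr1-/- against WT 14 were called lower and 6 higher, with a median of -1.11. Over all genes 57.1% and 60.7% were called lower and 13.6% and 14.1% higher, with medians of -0.74 and -0.83. With FPKM as deposited, the share of complement genes called lower was thus near that of all genes. Without the 3 C1q genes 12 of 23 were called lower and 6 higher in Tnfr2-/-, and 11 lower and 6 higher in Tnfr1-/- against WT, with medians of -0.61 and -0.46, smaller than those of all genes. With median-ratio scaling 12 and 11 of the 26 stayed called lower and 6 higher in each, and Colec12 changed sign in Tnfr2-/- against WT. Of all 8191 genes 1717 (Tnfr2-/-) and 1814 (Tnfr1-/-) were then called lower. The medians without C1q were then -0.18 and -0.17, against -0.03 over all genes in both comparisons. With quantile normalization 2 of the 26 changed sign in Tnfr2-/- and 3 in Tnfr1-/- against WT. Called lower were 11 and 12 of the 26, beside 1866 and 2075 of all genes. With either other scaling the share called lower was thus larger among complement genes than over all genes, and no set test was run.

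Further classical pathway genes fell along with C1q. C1ra, a protease of the C1 complex, was at 14.0 and 16.0 FPKM in WT, 0.892 and 1.05 FPKM in Tnfr1-/- and 0.952 and 1.85 FPKM in Tnfr2-/- samples. C2, the protease that C1 cleaves to form the C3 convertase, was at 17.4 and 20.0 FPKM in WT and between 0.282 and 0.506 FPKM in the 4 knockout samples. Both were called lower in both knockouts, without overlap, with log2 changes of -2.76 (C1ra) and -3.93 (C2) in Tnfr2-/- and of -3.02 and -3.78 in Tnfr1-/- against WT. C1s1, the other C1 protease, was low throughout, at 0.399 and 0.383 FPKM in WT and 0.163 FPKM or less in the knockouts, without overlap. It was not called with 1 added before log2, but it was called lower in both knockouts with 0.1 added instead. In all 5 of 6 listed classical genes, the 3 C1q genes among them, were called lower in each comparison, also with either other scaling. With FPKM as deposited, the share called lower over all genes was 57.1% (Tnfr2-/-) and 60.7% (Tnfr1-/-).

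Of the lectin pathway, which starts the cascade from sugars, 4 of 9 genes were listed. The ficolin gene Fcna, at 61.9 and 63.0 FPKM in WT and between 12.2 and 21.5 FPKM in the knockouts, was called lower in both knockouts, though not in Tnfr1-/- with median-ratio scaling. Colec12, a collectin scavenger receptor, was at 35.1 and 36.5 FPKM in WT, 8.26 and 12.4 FPKM in Tnfr1-/- and 20.9 and 25.6 FPKM in Tnfr2-/- samples, and its lower call in Tnfr2-/- did not hold with median-ratio scaling (log2 change 0.35 against -0.61). Of the alternative pathway, Cfb (factor B) was at 160 and 184 FPKM in WT, 2.28 and 5.73 FPKM in Tnfr1-/- and 4.60 and 22.3 FPKM in Tnfr2-/- samples. Cfp, which encodes properdin, the stabiliser of the alternative convertase, was between 172 and 174 FPKM in WT and between 41.3 and 55.7 FPKM in the knockouts. Both were called lower in both knockouts. C3 itself was not analysed here. The 3 listed genes of the membrane attack complex, C6, C8a and C8g, stood at 3.55 FPKM or less in every sample, and C6 was called higher in both knockouts. C8g was called lower in Tnfr2-/- against WT, a call lost with either other scaling, and its change in Tnfr1-/- turned positive (0.09) with quantile normalization.

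Complement regulators, which protect cells from the cascade, went the other way in part. Higher calls were made for 13.6% (Tnfr2-/-) and 14.1% (Tnfr1-/-) of all genes against WT, and lower calls for 57.1% and 60.7%. Of 12 regulator genes 5 were listed, and 3 were called higher and 1 lower in each knockout against WT. The lower one was Cd59a, whose call was lost in both knockouts with quantile normalization and in Tnfr1-/- with median-ratio scaling. Cd55, which encodes decay-accelerating factor, was at 1.39 and 1.37 FPKM in WT, 22.3 and 16.5 FPKM in Tnfr1-/- and 8.33 and 7.30 FPKM in Tnfr2-/- samples. It was called higher in both knockouts against WT, as was Cd46 at lower levels (1.39 FPKM at most). Between the knockouts, Cd55 was called lower in Tnfr2-/- than in Tnfr1-/- samples, with a log2 change of -1.20 (limma adjusted p = 0.0407). This call was lost when either WT sample, either Tnfr1-/- sample or Tnfr2-/- replicate 2 was left out, where no complement gene was called, and also with the replicate number as a block, without trend or with only the 2 groups (limma adjusted p = 0.0669, 0.0603 and 0.168).

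Among complement receptors, 4 were called lower and 2 higher in each knockout against WT, beside 57.1% and 60.7% of all genes called lower. The lower ones were C3ar1 (the C3a receptor), Vsig4 (a C3b receptor of tissue macrophages), Itgax (CD11c) and Itgb2 (CD18), and Itgb2 was no longer called with either other scaling and turned positive (0.08) in Tnfr1-/- with quantile normalization. Vsig4 was at 17.2 and 20.6 FPKM in WT, at 0.0272 FPKM and listed at 0 in Tnfr1-/- and at 0.257 FPKM and listed at 0 in Tnfr2-/- samples. C5ar1, the C5a receptor of neutrophils and monocytes, was at 6.69 and 6.19 FPKM in WT, 93.7 and 105 FPKM in Tnfr1-/- and 111 and 66.0 FPKM in Tnfr2-/- samples and was called higher in both. The other was Cr2, a complement receptor of B cells. The 6 listed B cell markers of 10, which include Cr2, were all called higher in both knockouts, and their summed level ran from 51.1 to 51.7 FPKM in WT, from 351 to 420 FPKM in Tnfr1-/- and from 184 to 319 FPKM in Tnfr2-/- samples. Among all genes 13.6% (Tnfr2-/-) and 14.1% (Tnfr1-/-) were called higher against WT. The part of B cells in the Cr2 result was not tested.

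**Figure D3:**
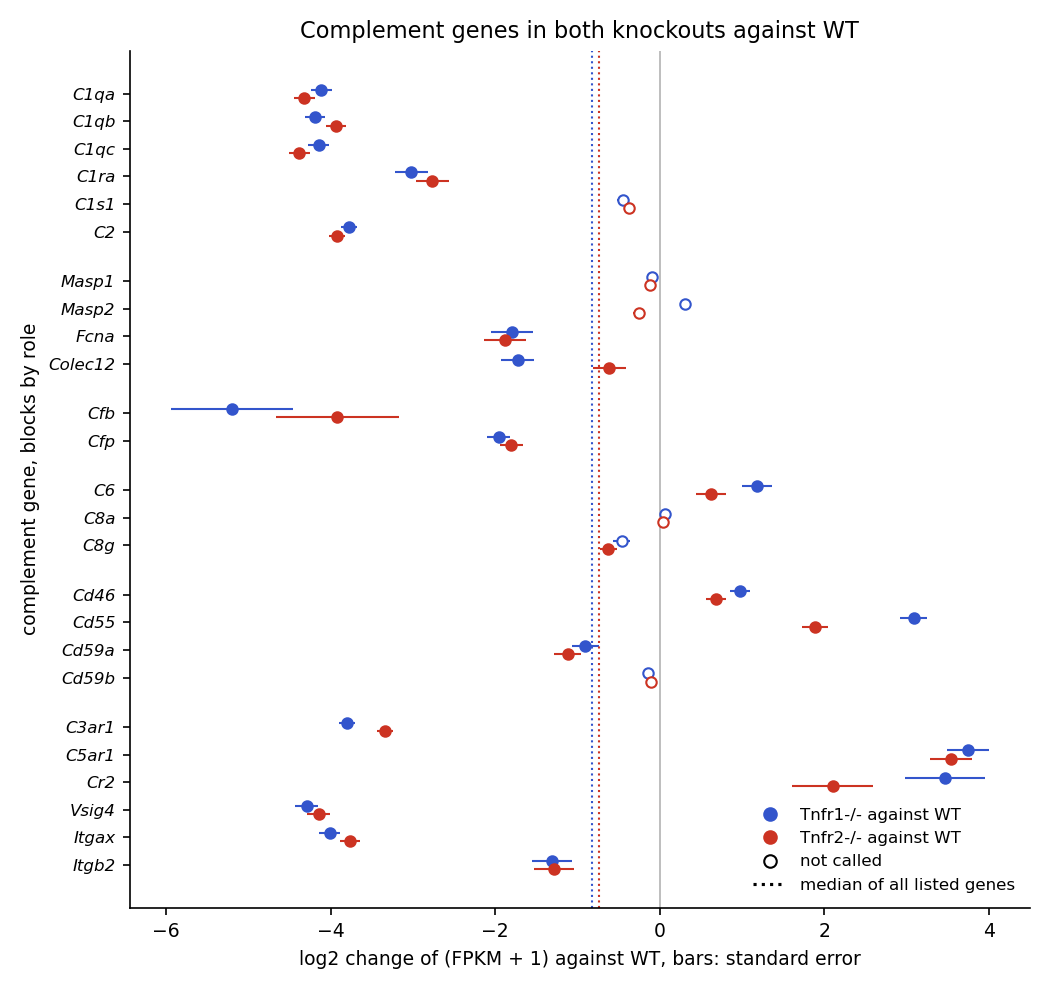
Log2 change of (FPKM + 1) against WT (horizontal axis) for 25 of the 26 listed complement genes (vertical axis, in blocks from the classical pathway at the top to receptors at the bottom). Points are limma estimates with standard errors, open where not called, and dotted lines mark the median of all genes (-0.74 and -0.83). The C1q genes lie between -4.38 and -3.94, while Cd55, C5ar1 and Cr2 lie on the other side of 0.

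Proteins that bind C1q were described next. Of 8 such genes 4 were listed, and all 4 were called lower in both knockouts against WT. Lower calls were made for 57.1% (Tnfr2-/-) and 60.7% (Tnfr1-/-) of all genes. Calr, which encodes calreticulin, a C1q-binding protein on dying and phagocytic cells, was at 619 and 660 FPKM in WT, 104 and 104 FPKM in Tnfr1-/- and 118 and 180 FPKM in Tnfr2-/- samples. Lrp1, the endocytic receptor that works with calreticulin, was at 98.0 and 90.7 FPKM in WT, 14.0 and 15.9 FPKM in Tnfr1-/- and 26.8 and 28.6 FPKM in Tnfr2-/- samples, and it was called higher in Tnfr2-/- than in Tnfr1-/- (log2 change 0.85, limma adjusted p = 0.0367). That call was lost in the same alternatives as the call of Cd55, with an adjusted p of 0.157 in limma on only the 2 groups. The others were C1qbp and Scarf1. With median-ratio scaling all 4 kept a negative change against WT, and 2 (Tnfr2-/-) and 3 (Tnfr1-/-) were still called. C1q shares its globular domain with a wider family, of which 6 of 22 genes were listed. Only Cbln1, a secreted synaptic organiser, was called lower in both knockouts against WT in that family with every scaling tried, at 23.8 and 27.2 FPKM in WT and at 0.189 FPKM at most in the knockouts, and Emilin2, a matrix protein, was called higher in both. Emilin1 was called lower in Tnfr1-/- against WT, a call lost with either other scaling, and its change in Tnfr2-/- turned positive (0.30 with median-ratio scaling).

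C1q tags dying cells for removal by phagocytes, and genes of that uptake were among those lower in the knockouts. Of 14 listed genes of 17, 11 were called lower and 0 higher in Tnfr2-/- against WT, and 12 were called lower and 0 higher in Tnfr1-/- against WT, with median log2 changes of -1.90 and -2.19, beside 57.1% and 60.7% lower calls and medians of -0.74 and -0.83 over all genes. With median-ratio scaling 8 and 9 were called lower and 1 higher. Mertk, a receptor kinase for dying cells, was at 56.5 and 54.6 FPKM in WT, 2.15 and 2.63 FPKM in Tnfr1-/- and 2.75 and 1.56 FPKM in Tnfr2-/- samples. Mfge8, the bridging protein between dying cells and integrins, was at 243 and 251 FPKM in WT, 1.45 and 1.89 FPKM in Tnfr1-/- and 2.92 and 3.41 FPKM in Tnfr2-/- samples. Axl, the relative of Mertk, was at 271 and 297 FPKM in WT and between 8.10 and 14.3 FPKM in the knockouts. No knockout sample reached the WT range for any of these 3 genes.

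Transcription factors of macrophages did not fall evenly. Spi1, whose product macrophages need, was at 299 and 284 FPKM in WT, 130 and 144 FPKM in Tnfr1-/- and 163 and 146 FPKM in Tnfr2-/- samples. Of 11 listed factors of 12, 10 (Tnfr2-/-) and 11 (Tnfr1-/-) were called lower against WT, beside 57.1% and 60.7% of all genes. Their median log2 changes were -0.91 and -1.94, against -0.74 and -0.83 over all genes. With median-ratio scaling only 5 and 6 factors were called lower. Under it 6 (Tnfr2-/-) and 4 (Tnfr1-/-) changed sign, among them Spi1 in both. Nr1h3, which encodes the lipid sensor LXR alpha, was at 56.9 and 60.7 FPKM in WT, 1.83 and 2.42 FPKM in Tnfr1-/- and 2.36 and 7.46 FPKM in Tnfr2-/- samples and was called lower with every scaling. The same held for Pparg, Rxra, Tfec and Cebpa.

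Markers of macrophages, the known source of C1q, moved with it. Of 24 markers 19 were listed, 17 were called lower and 1 higher in Tnfr2-/- against WT and 18 lower and 1 higher in Tnfr1-/- against WT. Their median log2 changes were -2.87 and -3.85, beside -0.74 and -0.83 over all genes, of which 57.1% and 60.7% were called lower. The higher one was Cd163, at 2.38 FPKM at most. The summed level of the 19 ran from 31049 to 33381 FPKM in WT, from 3642 to 4776 FPKM in Tnfr1-/- and from 6863 to 7888 FPKM in Tnfr2-/- samples. Most of this was Lyz2, which granulocytes and monocytes also express. Without it the sums ran from 7402 to 7842, from 573 to 696 and from 1065 to 1267 FPKM. Vsig4 and Folr2 were listed at 0 in part of the knockout samples, and Marco, a scavenger receptor of splenic macrophages, fell from 409 and 372 FPKM in WT to 0.854 FPKM or less. With median-ratio scaling 14 (Tnfr2-/-) and 13 (Tnfr1-/-) were still called lower, and Csf1r and Spic changed sign in Tnfr2-/- and Spic in Tnfr1-/- against WT. The part of macrophages in the C1q result was not tested.

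Markers of other cell types moved too. For comparison, 57.1% (Tnfr2-/-) and 60.7% (Tnfr1-/-) of all genes were called lower against WT, and 13.6% and 14.1% higher. All 6 listed monocyte markers of 10 were called higher in Tnfr2-/- against WT, and 5 of them in Tnfr1-/- against WT. Their sum ran from 64.8 to 68.6 FPKM in WT, from 421 to 527 FPKM in Tnfr1-/- and from 723 to 833 FPKM in Tnfr2-/- samples. The 3 granulocyte markers Retnlg, Csf3r and Mmp9 were called higher in both. Of 9 listed dendritic cell markers of 12, which share Itgax with the complement receptors, 6 were called lower and 1 higher in Tnfr2-/- and 7 lower and 1 higher in Tnfr1-/- against WT, and their sum ran from 4851 to 5137 FPKM in WT and from 820 to 1358 FPKM in the knockouts. With median-ratio scaling 4 (Tnfr2-/-) and 5 (Tnfr1-/-) were called lower and with quantile normalization 3 and 5, while Cd209a and Zbtb46 changed sign in Tnfr2-/- and Ccr7 in Tnfr1-/- against WT under both. Dendritic cells are the other known source of C1q. Of T and NK cell markers 3 of 10 and of erythroid markers 1 of 8 were listed, and no stromal or endothelial marker was. Cd3d was called higher and Cd4, which myeloid cells can also express, lower in both knockouts, as was the erythroid gene Epor. Cd3g was called higher in Tnfr1-/- samples, and also in Tnfr2-/- samples once either other scaling was used (log2 change 1.02 and 0.91). The part of any of these cells in the C1q result was not tested.

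C1qa was next divided by other genes of the same sample. Relative to Cd68, a lysosomal protein of macrophages, C1qa was at 0.966 and 0.979 in WT, 0.803 and 0.806 in Tnfr1-/- and 0.418 and 0.292 in Tnfr2-/- samples. Relative to Adgre1, which encodes the macrophage marker F4/80, it was at 6.88 and 6.31 in WT, 2.92 and 3.02 in Tnfr1-/- and 1.76 and 1.45 in Tnfr2-/- samples. Relative to Apoe, a lipid carrier abundant in macrophages, it was at 0.541 and 0.446 in WT, 0.255 and 0.240 in Tnfr1-/- and 0.101 and 0.0649 in Tnfr2-/- samples. In each case WT was highest, Tnfr2-/- lowest and no groups overlapped. The same order without overlap was seen for Csf1r, the receptor of macrophage growth factors, and for the leukocyte gene Ptprc. The WT mean ratio was 6.22-fold that of Tnfr1-/- and 13.3-fold that of Tnfr2-/- samples for Csf1r, and 43.6-fold and 51.0-fold for Ptprc. The fall of C1qa against Cd68 was thus small in Tnfr1-/- samples (1.21-fold) and larger in Tnfr2-/- samples (2.74-fold), and these ratios were not tested. Ratios to other macrophage markers were not formed, and some of these fell by more than C1qa. Mertk went from 56.5 and 54.6 FPKM in WT to between 1.56 and 2.75 FPKM in the knockouts. Marco went from 409 and 372 FPKM to 0.854 FPKM or less. The order above thus holds for the genes divided by, not for macrophage genes in general.

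**Figure D4:**
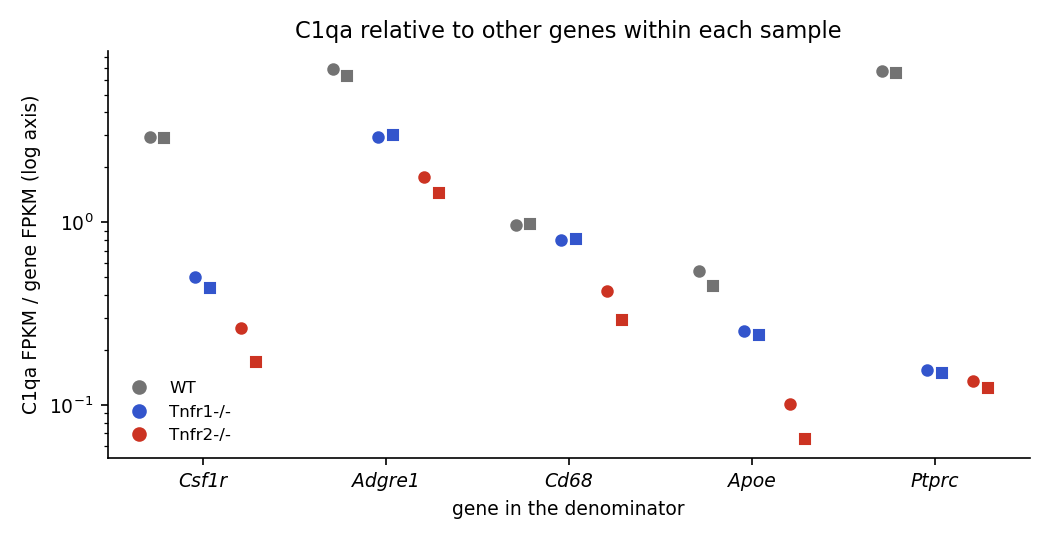
C1qa FPKM divided by the FPKM of another gene of the same sample (vertical log axis) for 5 genes (horizontal axis), circles for replicate 1 and squares for replicate 2. For each gene the WT samples lie highest and the Tnfr2-/- samples lowest, for example 0.966 and 0.979 against 0.418 and 0.292 for Cd68.

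Some macrophage genes were called between the knockouts, whereas no C1q gene was. Cd68 was at 44.4 and 50.2 FPKM in Tnfr1-/- and 86.6 and 101 FPKM in Tnfr2-/- samples, and Apoe at 140 and 168 FPKM and 359 and 454 FPKM. Cd68, Apoe, Trem2 (a lipid receptor of macrophages) and Adgre1 were called higher in Tnfr2-/- than in Tnfr1-/- samples, by 0.97, 1.39, 1.27 and 0.64 on the log2 scale with limma adjusted p of 0.0378, 0.0495, 0.0375 and 0.0421, and the other 15 listed macrophage markers were not called. Over all genes 1.45% were called between the knockouts, 0.842% higher and 0.61% lower in Tnfr2-/-. The 4 marker calls rest on the model chosen. No macrophage marker was called when either WT sample, either Tnfr1-/- sample or Tnfr2-/- replicate 2 was left out, and 8 were called without Tnfr2-/- replicate 1. The difference between the changes of C1q and those of the 4 genes was not itself tested.

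The genes with the profile most like that of C1qa over the 6 samples were found by the root mean square difference of log2(FPKM + 1) after centring each gene on its own mean. C1qc came first, at a difference of 0.0258. Rnf128 (0.0793), a ubiquitin ligase, Mertk (0.0988), Cdh1 (0.115), which encodes E-cadherin, and Dpep2 (0.121), a dipeptidase, followed. The next were Tmem254a, Cracr2b, Cdk18, Myrf and Fcrls at 0.130 to 0.147. All 10 were lower in both knockouts by construction of the measure. Only C1qc approached C1qa in level, for the other 9 were at 68.1 FPKM or less in WT, and Tmem254a was listed at 0 in all 4 knockout samples. C1qb came at rank 41, with a difference of 0.253, as its Tnfr2-/- values lay above those of the other chains. In all 26 genes lay within a difference of 0.2 and 178 within 0.5. With 6 samples of 3 genotypes this measure separates genes weakly, since any gene with the same WT to knockout step on the log2(FPKM + 1) scale comes close.

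**Figure D5:**
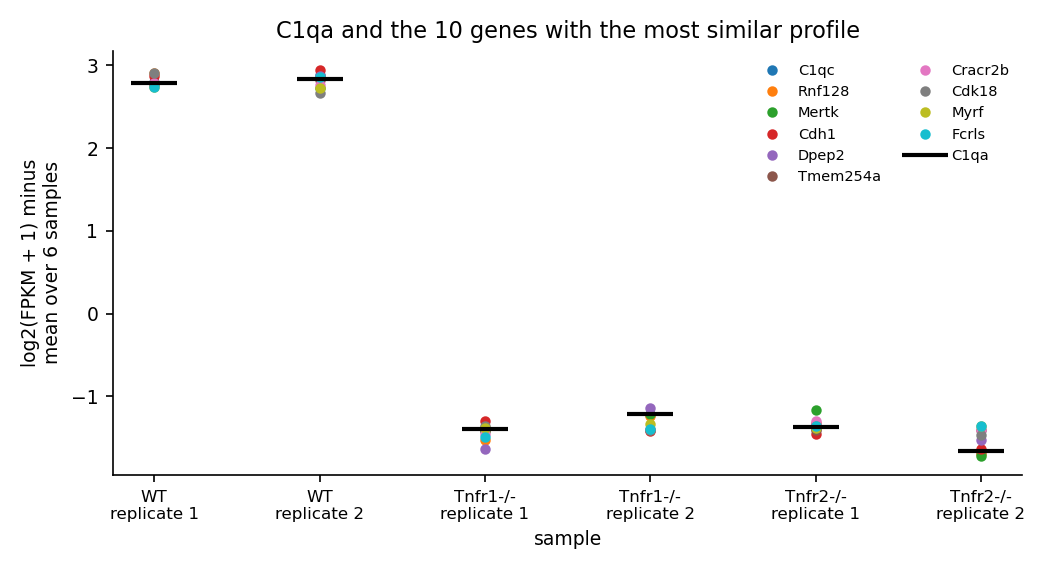
Log2(FPKM + 1) minus its mean over the 6 samples (vertical axis) for C1qa (black bars) and the 10 genes nearest to it (points) in each sample (horizontal axis). On this scale, on which 1 was added to FPKM, all lie close together in WT and in the knockouts. Root mean square differences from C1qa run from 0.0258 (C1qc) to 0.147 (Fcrls).

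The neighbourhood of the cluster did not move as one. Within 500 kb on either side of C1qa, 14 protein-coding genes are annotated and 4 besides C1q were listed. Luzp1 was at 8.18 and 7.72 FPKM in WT, 2.84 and 3.25 FPKM in Tnfr1-/- and 1.46 and 1.79 FPKM in Tnfr2-/- samples and was called lower in both knockouts, though in Tnfr1-/- with neither other scaling. Cdc42, a small GTPase of cell polarity, was at 43.6 and 43.8 FPKM in WT, 184 and 189 FPKM in Tnfr1-/- and 233 and 230 FPKM in Tnfr2-/- samples and was called higher in both with every scaling. Kdm1a, a histone demethylase, was not called against WT, and Zbtb40 was called lower in Tnfr1-/- against WT, with no call and a change of 0.05 under either other scaling. None of the 4 was called between the knockouts, but Luzp1 was called lower in Tnfr2-/- with either other scaling (log2 change -0.78 and -0.68). Tnfrsf1b, the gene deleted in Tnfr2-/- mice, lies on the same chromosome, 8.31 Mb away.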

How the data were processed

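The authors extracted RNA from splenic MDSCs, sequenced single-end reads of 50 bases and deposited FPKM for 6 samples with a p-value for each gene, which the ANOVA filter used and which was not used here. The labels name FastQC, edgeR and the build mm10, and the aligner and the tool that made the FPKM are not given in the sources used here. Read counts were not used, so depth is unknown and no count test was run. FPKM values were taken as deposited, 1 was added before log2, and limma 3.58.1 in R 4.3.3 (lmFit, contrasts, eBayes with trend, two-sided) was run on all 8191 genes and 6 samples, with Benjamini-Hochberg adjustment. The study's thresholds (adjusted p-value under 0.05, fold change over 1.5) defined a call. The largest ANOVA p-value, recomputed from the FPKM, was 0.0500. A figure legend of the study describes a pool of mice for each experiment, and the sample titles give a genotype and a number but no pool. The C1q genes and all lists were chosen with earlier results of these data known. Genes named are C1q, list members, the 10 nearest profiles, and listed genes within 500 kb of C1qa and Tnfrsf1b. Positions are from GENCODE M21 (GRCm38) and sequences from RefSeq (GRCm38.p6), and sequences of C1q proteins and of the C1qa promoter were not used here. The model was tested on simulated data. Alternatives were a pseudocount of 0.1, a mean of at least 1 FPKM, a model of only the groups compared, quantile normalization, median-ratio size factors, eBayes without trend, a replicate block and each sample left out. The complement list without C1q was added after the data were seen. Python 3.11.15, NumPy 2.4.6, SciPy 1.17.1, pandas 2.3.3 and matplotlib 3.10.9 served the other steps. Results for some items are not reported here.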

Additional observations from a re-analysis of the deposited data

How the results depend on the processing

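Each C1q gene kept its direction and its call, or its lack of one, in every alternative, 117 of 117 fits over 3 genes, 3 comparisons and 13 alternatives. Against WT the log2 change of C1qa with 1 sample left out ran from -4.47 to -4.18 in Tnfr2-/- and from -4.20 to -4.02 in Tnfr1-/-, and over the other alternatives from -4.36 to -3.32 and from -4.14 to -2.91, with limma adjusted p from 1.06e-06 to 0.000857 in these comparisons. The number of genes called changed with the scaling. In Tnfr2-/- against WT 5794 genes were called (1115 higher, 4679 lower), 3504 with median-ratio size factors (1787 higher, 1717 lower) and 3566 with quantile normalization (1700 higher, 1866 lower). In Tnfr1-/- against WT 6124 were called (1151 higher, 4973 lower), 3722 with median-ratio size factors (1908 higher, 1814 lower) and 3827 with quantile normalization (1752 higher, 2075 lower). The comparison of the knockouts was unstable, with 119 genes called, 217 among genes with a mean of at least 1 FPKM, 208 with median-ratio size factors, 244 with quantile normalization, 15 without trend, 7 with the replicate number as a block and 0 in limma on only the 2 groups, where 1436 had an unadjusted p under 0.05. With a sample left out it gave 2 to 662 genes, the latter without Tnfr2-/- replicate 1. Of complement genes 2 were called between the knockouts, 4 with quantile normalization, 0 to 4 with a sample left out, and 0 with the block, without trend or on only the 2 groups, where 8, 6 and 5 had an unadjusted p under 0.05 in limma. Of macrophage markers 4 were called, 0 to 8 with a sample left out and 0 in the same 3 alternatives, where 9, 9 and 7 had an unadjusted p under 0.05. The cause of these shifts was not tested. The labels do not say whether replicate numbers pair samples across genotypes. Deviations of same-numbered samples correlated at 0.0217 to 0.0462, which with 2 samples a group cannot exclude a shared experiment. The block changed no C1q call. With 2 samples a group and unknown depth, differences between the knockouts of about 1.5-fold were at the limit of these data.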
